A study of Mus musculus with 2 samples.

Results

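The immediate early response genes described here were *Fos*, *Fosb*, *Jun*, *Junb*, *Egr1*, *Atf3*, *Ier2*, *Ier3*, *Dusp1* and *Zfp36*, 10 of the 32285 genes counted. They were listed by symbol and not chosen by their values, although earlier results of these data were known when they were listed. Each matched 1 row of the count matrices. The counts came from single-cell RNA-seq of live (7AAD-) CD45+ leukocytes sorted from mouse hearts at 9 days of age, 7 days after myocardial infarction at postnatal day 2. One library was made from WT hearts and the other from global Lyve1 KO hearts, which lack the hyaluronan receptor LYVE-1 in all cell types, and each library held the pooled cells of 5 infarcted hearts. With 1 library per genotype there was no replicate, so the genotype, the pool and the library cannot be told apart here. No test between genotypes was possible from the counts, and every interval given covers counting error only. The paper assigned the cells of a pool to single hearts by sequence variants and compared cell abundance between genotypes. The counts used here do not hold those variants.

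Immediate early genes are transcribed within minutes of a stimulus by factors that are already present in the cell, and their mRNAs are short lived. Growth factors, cytokines, mechanical stress and heat act on them through MAP kinases, serum response factor, CREB and NF-kB, and several of the encoded proteins then shut the same signaling down. In leukocytes they accompany activation, and they are also known to be induced in cells that are released from tissue by warm enzymatic digestion. Both pools of hearts were digested with collagenase, cleared of red cells and sorted before capture, and no undigested tissue was analysed here, so transcripts made in the heart and transcripts made during preparation cannot be told apart in any value below.

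After filtering, 4187 WT and 3391 Lyve1 KO cells remained, with 63757770 and 57233748 unique molecular identifiers (UMIs, which count captured mRNA molecules) and medians of 11106 and 12856 UMIs per cell. The libraries shared 9 barcodes. Clusters built without the 10 genes were named from marker genes as CCR2- macrophages (1085 WT and 472 Lyve1 KO cells), CCR2+ macrophages (188 and 196), monocytes (416 and 448), neutrophils (351 and 336), B cells (426 and 495) and T cells (350 and 432), together called the large classes, and as dendritic cells (99 and 72), NK cells (40 and 51), ILC2 (47 and 55) and mast cells or basophils (29 and 15). The other 1156 WT and 819 Lyve1 KO cells stayed unnamed, with medians of 1606 and 1148 UMIs, although single unnamed clusters were as deep as the named lymphocytes. *Lyve1*, the targeted gene, was at 545 CPM (UMIs of a gene for each 1000000 UMIs of the cells summed) in WT and 21.6 CPM in Lyve1 KO CCR2- macrophages, but in the other 9 named classes it was higher in the Lyve1 KO library, at 3.83 to 51.6 CPM against 0 to 4.004 CPM in WT.

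Promoters were searched for recognition sequences of such factors in the 250 bases before the RefSeq start site (GRCm38.p6), on both strands, for the 8 of the 10 genes with a window, which left out *Egr1* and *Ier2*. None of the motifs searched was in the window of *Jun*. TGACG, the core of the CREB and ATF site, was in 5 of the 8 windows (*Atf3*, *Dusp1*, *Fos*, *Fosb* and *Junb*) and in 17.77% of all 32851 windows. The full palindrome TGACGTCA, which holds that core on both strands, was in the *Dusp1* window and in 1.546% of all windows. An NF-kB site was in the windows of *Fos*, *Fosb* and *Ier3* and in 3.899% of all windows. A CArG box, the site of serum response factor, was in that of *Zfp36*, whose 250 bases lie in an annotated exon (1.467% of all windows), GCGNGGGCG, an EGR site, in those of *Fosb* and *Zfp36* (4.697%), and TATAAA in that of *Fos* (12.37%). TGANTCA, the site that AP-1 itself binds, was in none of the 8 and in 6.749% of all windows. The matches describe letters in these windows and not binding, and sites outside the windows were not searched.

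The regions of *Fos*, *Dusp1* and *Ier3* are shown 5′ to 3′ on the strand of the gene, cut where an annotated exon begins, because they hold the CREB core in an AP-1 gene, the palindrome in a feedback gene and the NF-kB site in the gene whose level spanned the classes most widely. Capitals mark TGACG or TGACGTCA in *Fos* (chr12:85473640-85473889, plus strand) and *Dusp1* (chr17:26508520-26508722, minus strand) and the NF-kB site in *Ier3* (chr17:35821463-35821683, plus strand).
Fos: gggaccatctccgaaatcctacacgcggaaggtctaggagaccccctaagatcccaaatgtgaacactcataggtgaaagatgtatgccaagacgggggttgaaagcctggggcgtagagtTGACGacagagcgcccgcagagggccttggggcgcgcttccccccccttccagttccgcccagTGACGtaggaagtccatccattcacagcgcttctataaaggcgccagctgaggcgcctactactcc
Dusp1: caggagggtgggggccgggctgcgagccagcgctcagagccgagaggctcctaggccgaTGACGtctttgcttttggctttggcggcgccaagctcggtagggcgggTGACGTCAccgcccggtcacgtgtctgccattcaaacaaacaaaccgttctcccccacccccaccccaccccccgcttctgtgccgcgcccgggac
Ier3: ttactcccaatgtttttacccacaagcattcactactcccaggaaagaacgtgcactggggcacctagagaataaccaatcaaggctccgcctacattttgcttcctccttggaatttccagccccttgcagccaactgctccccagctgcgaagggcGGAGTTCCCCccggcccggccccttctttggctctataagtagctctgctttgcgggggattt
Counted back from the start site, the core began at base -129 and again at base -66 in *Fos*, the palindrome at base -143 in *Dusp1* with a further core at base -191, and the NF-kB site at base -92 in *Ier3*.

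The 10 genes were abundant in the myeloid classes and low in B and T cells. Summed over the 10 genes, the level was 12985 CPM in WT and 11870 CPM in Lyve1 KO CCR2- macrophages, 10519 and 11175 CPM in CCR2+ macrophages, 10240 and 9817 CPM in monocytes, and 10282 and 13405 CPM in neutrophils. B cells held 3731 and 3642 CPM and T cells 2225 and 2884 CPM. Both libraries of each of these myeloid classes were above both libraries of B cells, and those above both libraries of T cells. Among the small classes, mast cells or basophils had the highest sum, 24246 and 16566 CPM from 29 and 15 cells. ILC2, a lymphoid class, had 11571 and 11392 CPM, a sum like that of the macrophages but of another make-up. *Junb* alone gave 7681 and 6537 CPM of the ILC2 sum, against 2541 and 2486 CPM in CCR2- macrophages. It also gave 3411 and 2219 CPM of the sum in NK cells and 1345 and 1415 CPM in T cells. Dendritic cells were at 7230 and 6990 CPM and NK cells at 5611 and 4283 CPM. Over all kept cells the sum was 9897 CPM in WT and 8464 CPM in Lyve1 KO, and the make-up of the libraries moved with it, CCR2- macrophages being 1085 of 4187 WT but 472 of 3391 Lyve1 KO cells.

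**Figure D1:**
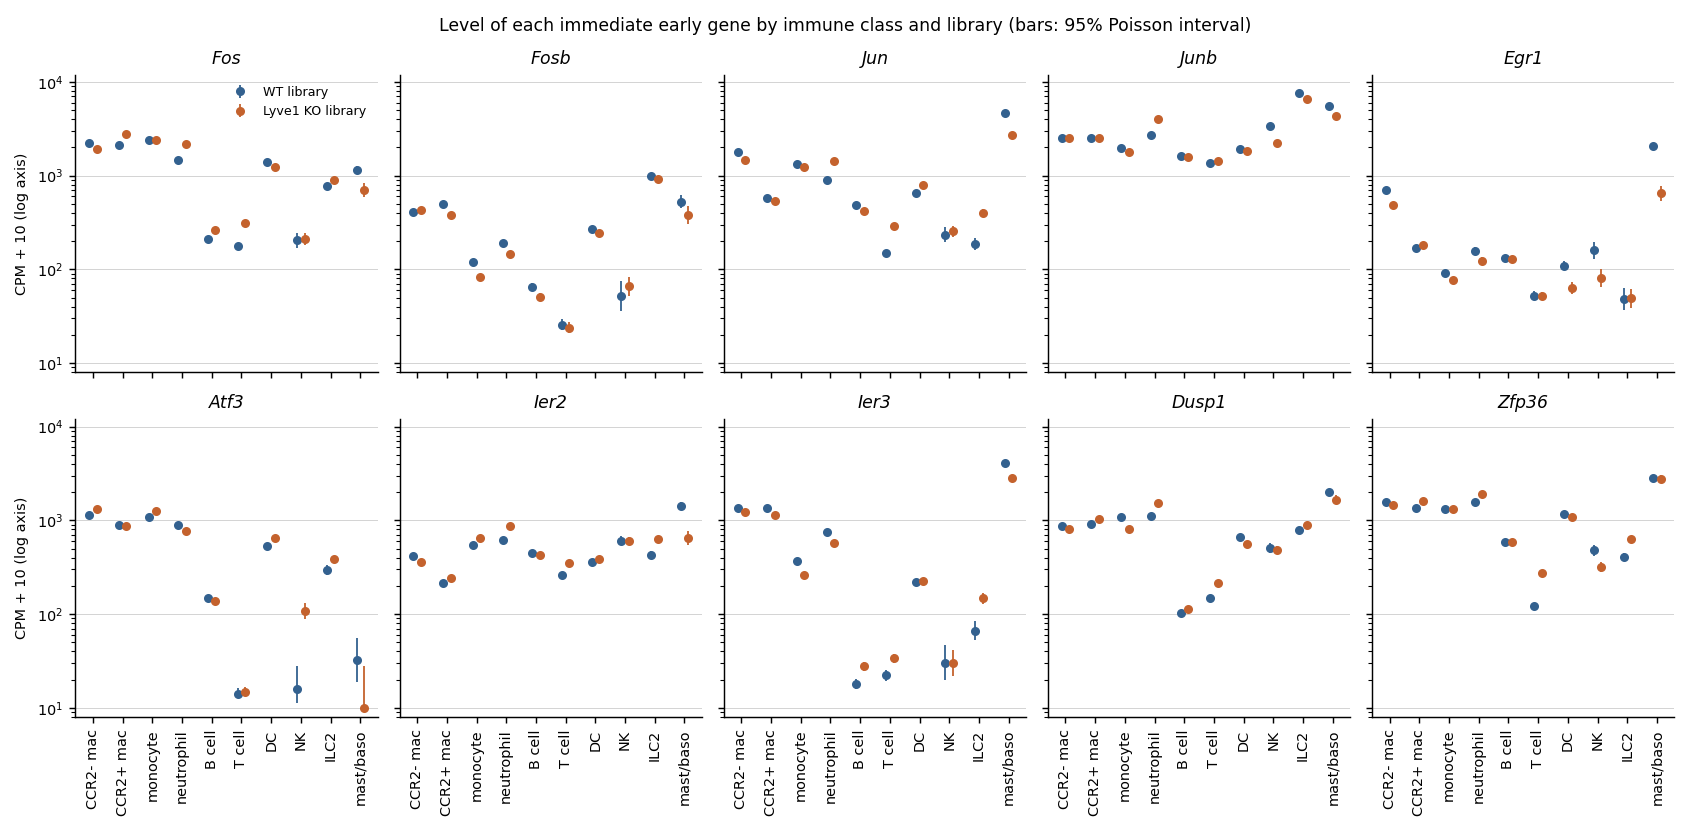
Level of each gene as CPM + 10 (log axis) in the 10 named classes, 1 point per library (blue, WT; orange, Lyve1 KO) with a 95% Poisson interval. *Atf3* and *Ier3* drop steeply from the macrophages to T cells, whereas the means of the libraries spanned 4.22-fold for *Ier2* and 5.11-fold for *Junb* from the lowest to the highest class.

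The genes of AP-1, the dimeric bZIP factor, differed in the lineage in which they were high. *Fos*, the founding member, was a gene of the myeloid classes, at 2136 CPM in WT and 2763 CPM in Lyve1 KO CCR2+ macrophages, 2419 and 2394 CPM in monocytes and 2243 and 1926 CPM in CCR2- macrophages. CCR2+ macrophages and monocytes overlapped at the top of the order. At its lower end B cells (203 and 253 CPM), T cells (167 and 301 CPM) and NK cells (194 and 203 CPM) overlapped. *Fosb*, the paralog of *Fos*, was instead highest in ILC2, at 983 and 904 CPM. It was at 399 and 424 CPM in CCR2- macrophages but at 111 and 73.5 CPM in monocytes, which were among the highest classes for *Fos*. T cells held 15.6 and 13.9 CPM of *Fosb*, and its mean over the libraries was 38.5-fold higher in ILC2 than in T cells on the scale of CPM + 10.

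*Jun*, the main partner of FOS, was highest in mast cells or basophils, at 4688 CPM in WT and 2688 CPM in Lyve1 KO, followed by CCR2- macrophages at 1783 and 1448 CPM. Monocytes (1338 and 1230 CPM) and neutrophils (893 and 1432 CPM) overlapped behind them. CCR2+ macrophages, highest for *Fos*, had 570 and 532 CPM of *Jun*, below both libraries of the other large myeloid classes. *Junb*, a JUN relative that often acts against it, was more even, with a 5.11-fold span between class means, from 7681 and 6537 CPM in ILC2 to 1345 and 1415 CPM in T cells. In *Junb* the CCR2- macrophages (2541 and 2486 CPM), CCR2+ macrophages (2520 and 2489 CPM), NK cells (3411 and 2219 CPM) and neutrophils (2717 and 4012 CPM) overlapped with one another or with the class next in order.

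*Atf3*, a stress-induced bZIP repressor that limits inflammatory transcription in macrophages, separated myeloid cells from T cells widely. CCR2- macrophages held 1136 CPM in WT and 1296 CPM in Lyve1 KO and monocytes 1082 and 1248 CPM, which overlapped, while T cells held 4.13 and 4.79 CPM. To compare cells of unequal depth, each cell was thinned to 4900 UMIs. *Atf3* was then found in 75.8% of 1064 WT and 82.9% of 462 Lyve1 KO CCR2- macrophages (exact intervals 73.2-78.4% and 79.2-86.2%), but in 2.23% of 224 WT and 2.41% of 374 Lyve1 KO T cells (0.729-5.13% and 1.11-4.52%). Thinning left out 21 and 10 shallower CCR2- macrophages and 126 and 58 T cells, and without it the shares were 87.9% and 92.2% and 4.0% and 3.24%. No class lacks these genes by definition, and the T cell share is an upper bound for what free RNA added to *Atf3* in T cells of that depth. *Atf3* was also in 0 of 31 thinned WT NK cells and 0 of 11 thinned Lyve1 KO mast cells or basophils (exact intervals up to 11.2% and 28.5%). B cells were above it, at 140 and 129 CPM and in 19.2% of 338 and 16.4% of 445 thinned cells (26.5% and 25.3% without thinning). In mast cells or basophils, the highest class for 6 of the 10 genes, *Atf3* was at 7 UMIs in WT and 0 UMIs in Lyve1 KO.

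*Egr1*, a zinc-finger factor downstream of ERK and serum response factor, was a gene of CCR2- macrophages among the large classes. They held 691 CPM in WT and 481 CPM in Lyve1 KO, and the next large class, CCR2+ macrophages, 159 and 172 CPM. Both libraries of CCR2- macrophages were above both libraries of the other 5 large classes. Monocytes had 81.7 and 66.2 CPM of *Egr1*, although their *Fos* and *Atf3* were near those of CCR2- macrophages. Mast cells or basophils held 2072 and 638 CPM, the latter within the range of CCR2- macrophages. ILC2, highest for *Fosb* and *Junb*, had the lowest level of *Egr1*, 38.4 and 38.9 CPM.

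The IER genes had opposite ranges. *Ier2*, a nuclear regulator of transcription, varied least of the 10, from 1404 CPM in WT and 642 CPM in Lyve1 KO mast cells or basophils to 205 and 231 CPM in CCR2+ macrophages. *Ier3*, an NF-kB target involved in cell survival, varied most on the scale of CPM + 10, with a 153-fold span against 84.6-fold for *Atf3*. The mean CPM of the highest and the lowest class was 3434 and 12.7 for *Ier3* and 1216 and 4.46 for *Atf3*. The order of these genes thus rests on the added 10. It was at 4036 and 2832 CPM in mast cells or basophils, 1350 and 1214 CPM in CCR2- macrophages, 1344 and 1125 CPM in CCR2+ macrophages, 743 and 556 CPM in neutrophils and 355 and 253 CPM in monocytes. Both macrophage classes thus overlapped and stood above neutrophils and monocytes. B cells held 7.85 and 17.6 CPM and T cells 12.2 and 23.7 CPM, and *Ier3* was found in 3.55% of 338 and 4.94% of 445 thinned B cells (6.57% and 11.7% without thinning).

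The feedback genes were also highest in mast cells or basophils and low in T cells. *Dusp1*, which encodes a phosphatase that inactivates p38 and JNK, was at 1100 CPM in WT against 1512 CPM in Lyve1 KO neutrophils, 870 and 799 CPM in CCR2- macrophages, 137 and 204 CPM in T cells and 92.8 and 103 CPM in B cells. *Zfp36*, which encodes tristetraprolin, a protein that binds AU-rich mRNAs such as that of *Tnf* and speeds their decay, was at 1561 and 1879 CPM in neutrophils, 1566 and 1444 CPM in CCR2- macrophages, 574 and 572 CPM in B cells and 113 and 264 CPM in T cells. B cells and T cells therefore changed places between both feedback genes. Over the 10 genes the order of the classes was partly resolved. Of the 9 steps from 1 class to the next, 4 to 6 per gene had both libraries of the upper class above both libraries of the lower.

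The share of a single cell's UMIs that came from the 10 genes was also higher in macrophages than in B and T cells. The 10 genes took 1.18% of the UMIs of the median WT CCR2- macrophage and 1.10% in Lyve1 KO, with ranges from the 10th to the 90th percentile of cells of 0.261-2.58% and 0.316-2.43%. The median was 0.258% and 0.24999% in B cells and 0.156% and 0.215% in T cells. In ILC2 (47 and 55 cells) it was 1.26% and 0.956%. The tenth of cells with the most such UMIs held 26.0% and 25.8% of them in CCR2- macrophages, 35.9% and 33.8% in neutrophils and 39.1% and 35.6% in T cells.

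**Figure D2:**
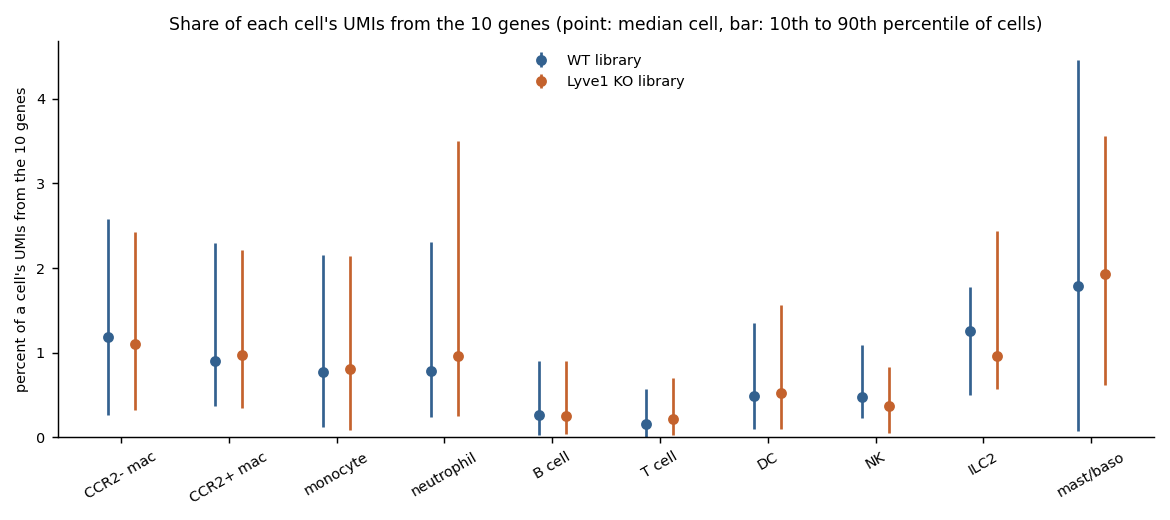
Percent of a cell's UMIs that came from the 10 genes (y axis) in each named class, with a point for the median cell and a bar from the 10th to the 90th percentile of cells, by library (blue, WT; orange, Lyve1 KO). The medians lie at 0.156% and 0.215% in T cells and at 1.18% and 1.10% in CCR2- macrophages, and the bars of the libraries overlap in every class.

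Within a class the 10 genes varied together from cell to cell, most in CCR2- macrophages. Across thinned cells the median Pearson r over the 45 pairs of genes was 0.364 in WT and 0.342 in Lyve1 KO CCR2- macrophages (1064 and 462 cells), 0.249 and 0.297 in monocytes (394 and 440), 0.255 and 0.253 in neutrophils (290 and 298) and 0.132 and 0.104 in T cells (224 and 374). The highest pair was *Junb* with *Zfp36* in neutrophils of both libraries (0.548 and 0.567) and *Junb* with *Ier2* in T cells of both (0.394 and 0.450). These points share a library and a depth, and the counts behind r differ between classes. Across the 20 combinations of class and library the median r over pairs was 0.455, from -0.17 (*Ier2* with *Atf3*) to 0.902 (*Zfp36* with *Jun*). The Spearman correlation of the share of UMIs from the 10 genes with a cell's mitochondrial percent lay between -0.245 and 0.0476 in the large classes, and that with its depth between -0.146 and 0.2997.

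The comparison of the libraries asked whether leukocytes of infarcted hearts without LYVE-1 held more or less of these transcripts. In each large class the log2 ratio of CPM + 10, Lyve1 KO over WT, was taken, and a ratio of at least 1.5-fold in either direction was called past the fold. Of the 60 pairs of gene and large class, 6 were past it with the higher level in Lyve1 KO, 0 with the lower level, and 54 were within it. The log2 ratio was above 0 in 27 pairs and below 0 in 33, with a median size of 0.22. In T cells 4 of 10 genes were past the fold, where 10.6% of the 8723 genes with at least 100 UMIs were, and 3.61% with the higher level in Lyve1 KO. In neutrophils it was 1 of 10, against 5.19% of 4756 genes and 1.47% with the higher level, and in B cells 1 of 10, against 2.13% of 9028 and 1.24%. None of the 10 was past it in CCR2- macrophages (1.76% of 10998 genes, 1.21% higher), CCR2+ macrophages (2.3% of 7901, 0.873% higher) or monocytes (1.07% of 8751, 0.251% higher). The share of genes past the fold downward was 0.555% in CCR2- macrophages, 1.43% in CCR2+ macrophages, 0.823% in monocytes, 3.72% in neutrophils, 0.886% in B cells and 6.96% in T cells. The share of thinned cells with a UMI of the gene was also compared in these 60 pairs. Its difference had an interval without 0 in 6 of them, 4 with the higher share in Lyve1 KO and 2 with the lower. *Egr1* and *Fosb* had the lower CPM in Lyve1 KO in 5 of the 6 large classes, and *Fos*, *Ier2*, *Dusp1* and *Zfp36* the higher CPM in 4. These counts include differences near 0, such as *Egr1* in T cells (42.2 and 41.8 CPM) and *Zfp36* in monocytes (1296 and 1317 CPM). The same count over all genes was not made.

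**Figure D3:**
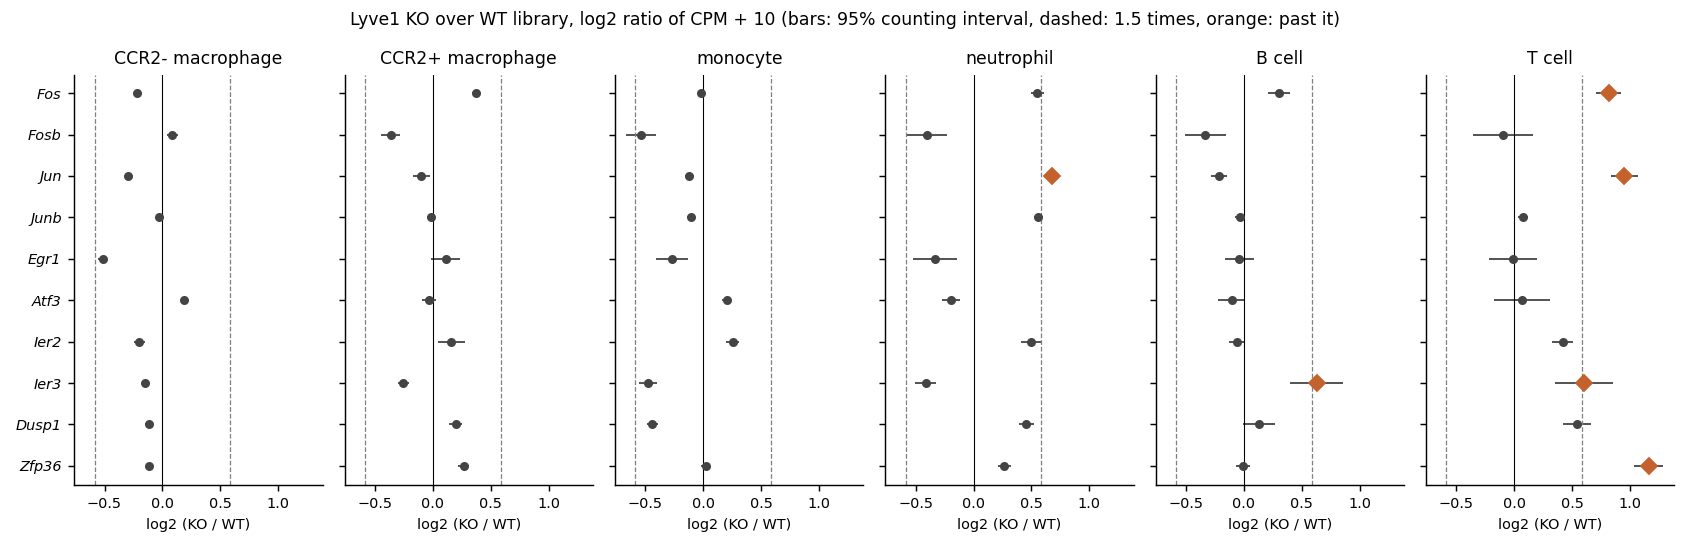
Log2 ratio of CPM + 10 (x axis), Lyve1 KO over WT, for each of the 10 genes in the 6 large classes, with 95% counting intervals; dashed lines mark 1.5-fold and orange diamonds the 6 ratios past it. The diamonds are *Fos*, *Jun*, *Ier3* and *Zfp36* in T cells, *Jun* in neutrophils and *Ier3* in B cells.

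CCR2- macrophages were the class with the highest *Lyve1* in WT, and the 10998 genes tested there had a median log2 ratio of -0.06. The sum of the 10 genes was 0.914-fold in Lyve1 KO (log2 -0.13, 95% counting interval -0.14 to -0.12), with 8 of them lower and 2 higher. *Egr1* had the lowest ratio, at 691 and 481 CPM (log2 -0.51, -0.55 to -0.47), while it was found in 62.4% of WT and 63.9% of Lyve1 KO thinned cells, a difference of 1.45 points with an interval of -3.87 to 6.62 (75.6% and 79.9% without thinning). The order turned at a thinned depth of 2450 UMIs, with 52.8% and 46.4%, a difference of -6.45 points (-11.8 to -1.03), so no order is read from these shares. *Jun* was at 1783 and 1448 CPM (log2 -0.30), and *Fos* at 2243 and 1926 CPM (log2 -0.22). The share of thinned cells with *Jun* differed by -4.19 points (-8.57 to -0.110), and by -7.45 points (-12.3 to -2.79) at 2450 UMIs. *Atf3* lay the other way, at 1136 and 1296 CPM (log2 0.19), and its share of thinned cells was 7.05 points higher in Lyve1 KO (2.60 to 11.2), but 4.76 points higher with an interval that includes 0 (-0.304 to 9.61) at 2450 UMIs. *Junb* was nearly level, at 2541 and 2486 CPM.

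The clusters of CCR2- macrophages differed more than the libraries did. The cluster led by *Ccl8* and *Fcna*, among whose leading genes *Lyve1* and *Folr2* also stood, had 16064 CPM of the 10 genes in WT (196 cells) and 14241 CPM in Lyve1 KO (131 cells), with *Egr1* at 1045 and 720 CPM. The largest cluster, led by *Fcrls* and *Olfml3*, had 13426 CPM (554 cells) and 13815 CPM (200 cells), and the cycling cluster led by *Cenpf* 9323 and 8663 CPM (143 and 41 cells). The cluster led by *Saa3* and *Prg4* had the lowest Lyve1 KO level, 7140 CPM (49 cells) against 10156 CPM in WT (60 cells), and its *Fos* was at 1414 CPM in WT against 612 CPM in Lyve1 KO. That cluster was left out after its values were seen, and without it the summed log2 ratio of the class was -0.03 in place of -0.13. With the same make-up of clusters in both libraries it was -0.09. The cluster led by *Trim69* (18 and 16 cells) was also lower in Lyve1 KO, at 17335 and 12163 CPM. So was that led by *Cd207* (70 and 17 cells), at 16145 and 12962 CPM. That led by *Hist1h2ab* (44 and 18 cells) was nearly level, at 10724 and 10690 CPM. *Egr1* was lower in Lyve1 KO in all 7 clusters, with log2 ratios from -0.29 in the largest to -1.90 in the smallest, of 18 and 16 cells.

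In CCR2+ macrophages the sum was 1.06-fold in Lyve1 KO, with *Fos* at 2136 and 2763 CPM (log2 0.37) and *Fosb* at 484 and 374 CPM (log2 -0.36), so that these paralogs lay on opposite sides of 0. In monocytes it was 0.959-fold, and *Fosb* (111 and 73.5 CPM, log2 -0.54), *Ier3* (355 and 253 CPM, log2 -0.47) and *Dusp1* (1086 and 800 CPM, log2 -0.44) had the lowest ratios. The monocyte clusters lay in opposite order in the libraries. That led by *S100a8* and *Ly6c2*, genes of classical monocytes, was at 9562 CPM in WT (241 cells) and 10054 CPM in Lyve1 KO (243 cells), and that led by *Pglyrp1* and *Eno3*, genes of patrolling monocytes, at 11819 CPM (175 cells) and 9403 CPM (205 cells).

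In neutrophils the sum was 1.30-fold in Lyve1 KO (10282 and 13405 CPM, log2 0.38, 0.36 to 0.40), with 6 genes higher and 4 lower. *Jun* was at 893 CPM in WT against 1432 CPM in Lyve1 KO (log2 0.67, and 0.56 and within the fold with the mean of per-cell log values), *Junb* at 2717 and 4012 CPM (log2 0.56), *Fos* at 1461 and 2147 CPM (log2 0.55), *Ier2* at 605 and 856 CPM (log2 0.49) and *Dusp1* at 1100 and 1512 CPM (log2 0.46). On the other side were *Ier3* at 743 and 556 CPM (log2 -0.41), *Fosb* at 181 and 134 CPM (log2 -0.40), *Egr1* at 146 and 114 CPM (log2 -0.33) and *Atf3* at 874 and 763 CPM (log2 -0.19). *Fos* was found in 71.0% of 290 WT and 81.9% of 298 Lyve1 KO thinned neutrophils, a difference of 10.8 points (3.99 to 17.6), and in 74.6% and 85.1% without thinning. The higher sum lay in the main cluster, led by *Stfa1* (251 and 261 cells), at 11972 and 16914 CPM, and not in the cluster led by *Il1rn* and *Acod1*, genes of activated neutrophils (79 and 47 cells), at 11186 and 9610 CPM. The small cluster led by *Camp* and *Ngp*, granule genes of immature neutrophils (21 and 28 cells), held 2838 and 4655 CPM, with *Atf3* at 4.17 and 16.3 CPM. Without it the summed log2 ratio of neutrophils was 0.43.

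In B cells the sum was 0.976-fold in Lyve1 KO, and *Ier3*, the gene past the fold, rested on 48 UMIs in WT and 157 UMIs in Lyve1 KO (7.85 and 17.6 CPM, log2 0.63, 0.40 to 0.86). It was within the fold with the same make-up of clusters (log2 0.42) and with the mean of per-cell log values (log2 0.05). *Jun* was at 481 and 413 CPM (log2 -0.22), and it differed more between clusters, at 983 and 783 CPM in that led by *Vpreb3* and *Fcer2a* (211 and 270 cells) and at 202 and 220 CPM in that led by *Zbtb32* and *Fcrl5* (120 and 171 cells). The shallow cluster led by *Ebf1* (95 and 54 cells) had 1092 and 820 CPM of the 10 genes.

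In T cells *Zfp36* was at 113 CPM in WT against 264 CPM in Lyve1 KO (log2 1.16, 1.04 to 1.28), *Jun* at 139 and 278 CPM (log2 0.95, 0.84 to 1.07), *Fos* at 167 and 301 CPM (log2 0.81, 0.71 to 0.92) and *Ier3* at 12.2 and 23.7 CPM (log2 0.60, 0.35 to 0.85). *Zfp36* was found in 35.3% of 224 WT and 51.3% of 374 Lyve1 KO thinned T cells, a difference of 16.1 points (7.87 to 23.9), and *Egr1* in 20.1% and 13.1%, a difference of -6.99 points (-13.5 to -0.927). Without thinning these shares were 48.6% and 70.4% for *Zfp36* and 26.6% and 29.2% for *Egr1*, so that for *Egr1* the order turned with depth, and at 2450 UMIs its difference was -3.87 points (-8.80 to 0.677). The T cells thus divided by gene, and *Junb* (1345 and 1415 CPM) and *Egr1* (42.2 and 41.8 CPM) were nearly level in CPM. Median depth was 8306.5 UMIs in WT and 12378 UMIs in Lyve1 KO T cells.

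The make-up of the T cells moved with these ratios. Cells of the cluster led by *Arpp21*, with *Rag1* and *Dntt*, genes of early T cell development, had the lowest sum, 1529 CPM in WT and 1308 CPM in Lyve1 KO. They were 140 of 350 WT T cells (40.0%, exact interval 34.8-45.3%) but 69 of 432 Lyve1 KO T cells (16.0%, 12.6-19.8%). The other clusters were at 3339 and 3493 CPM (led by *Dapl1* and *Cd40lg*), 2967 and 2949 CPM (*Gm2682* and *Sidt1*) and 3118 and 4077 CPM (*Ctla4* and *Foxp3*, genes of regulatory T cells; 33 and 47 cells). With the same make-up of clusters in both libraries the summed log2 ratio was 0.04 in place of 0.37, and without the cluster led by *Arpp21* it was 0.11. Of the 4 genes only *Zfp36* was then past the fold under both, at 0.68 with the same make-up and 0.63 without that cluster, while *Jun* was at 0.25 and 0.37, *Fos* at 0.36 and 0.43 and *Ier3* at 0.57 and 0.34. In cells with Y-linked UMIs only, none of the 4 was past it, with *Zfp36* at 0.30, *Fos* at 0.18, *Jun* at 0.16 and *Ier3* at 0.53, and none was with the mean of per-cell log values, at 0.57, 0.39, 0.32 and 0.06 in the same order. *Zfp36* was higher in Lyve1 KO in each of the 4 clusters, from 44.9 and 103 CPM in that led by *Arpp21* to 233 and 372 CPM in that led by *Ctla4*.

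**Figure D4:**
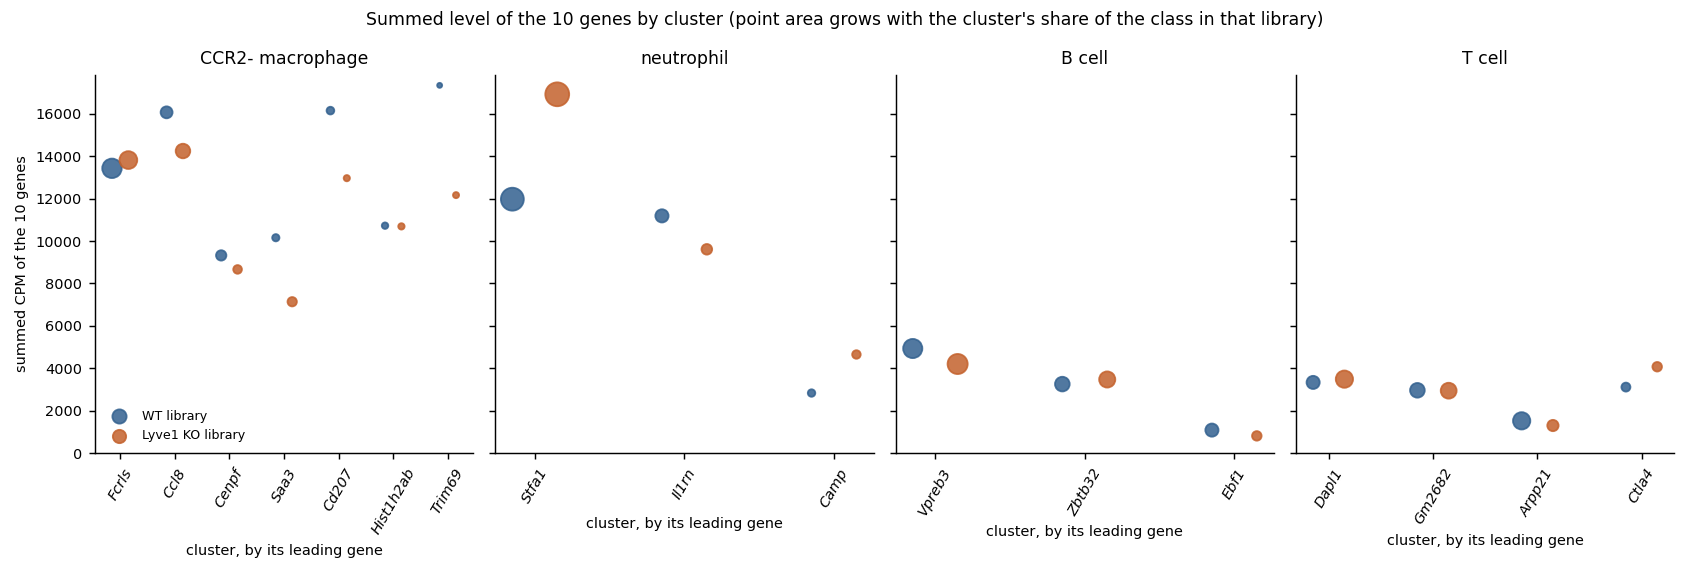
Summed CPM of the 10 genes (y axis) in each cluster of 4 classes (x axis, by leading gene), 1 point per library (blue, WT; orange, Lyve1 KO) with an area that grows with the cluster's share of the class. The T cell cluster led by *Arpp21* lies lowest of its class, at 1529 and 1308 CPM, and the neutrophil cluster led by *Stfa1* lies at 11972 and 16914 CPM.

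Cells of female and of male hearts come from different animals of a pool, so their levels show how far such parts of a library lay apart. Such parts also differ in sex and are not replicates. Cells with *Xist* and no Y-linked UMI and cells with a Y-linked UMI and no *Xist* were therefore summed apart, leaving out the rest, and how many hearts stand behind each part is not known. In neutrophils both Lyve1 KO parts, at 10982 CPM (*Xist*, 35 cells) and 12351 CPM (Y-linked, 110 cells), were above both WT parts, at 8593 CPM (26 cells) and 9974 CPM (148 cells), and *Jun* was at 1155 and 1219 CPM against 210 and 767 CPM. The whole class, of 351 WT and 336 Lyve1 KO cells, was at 10282 and 13405 CPM, above both parts of the same library. The neutrophils left out were thus higher than these parts. In CCR2- macrophages both Lyve1 KO parts, at 11790 and 11881 CPM, were below both WT parts, at 11904 and 13459 CPM, and *Egr1* was at 520 and 455 CPM against 646 and 711 CPM. The counting intervals of the Lyve1 KO sums (11701-11879 and 11805-11958 CPM) overlapped that of the WT *Xist* part (11833-11976 CPM). The cluster led by *Saa3* made up 4.19% and 15.4% of these Lyve1 KO parts and 5.46% and 5.66% of these WT parts. In monocytes the WT parts, at 8461 and 11675 CPM, enclosed the Lyve1 KO parts, at 10289 and 9138 CPM, and so they did in B cells, with 3212 and 3898 CPM around 3841 and 3361 CPM. In T cells the WT *Xist* part was at 1829 CPM and the other parts at 2704 CPM (WT, Y-linked), 2847 CPM (Lyve1 KO, *Xist*) and 2689 CPM (Lyve1 KO, Y-linked). The cluster led by *Arpp21* made up 65.7% of the T cells of that WT *Xist* part, against 16.7%, 2.80% and 20.9% of the others in the same order.

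**Figure D5:**
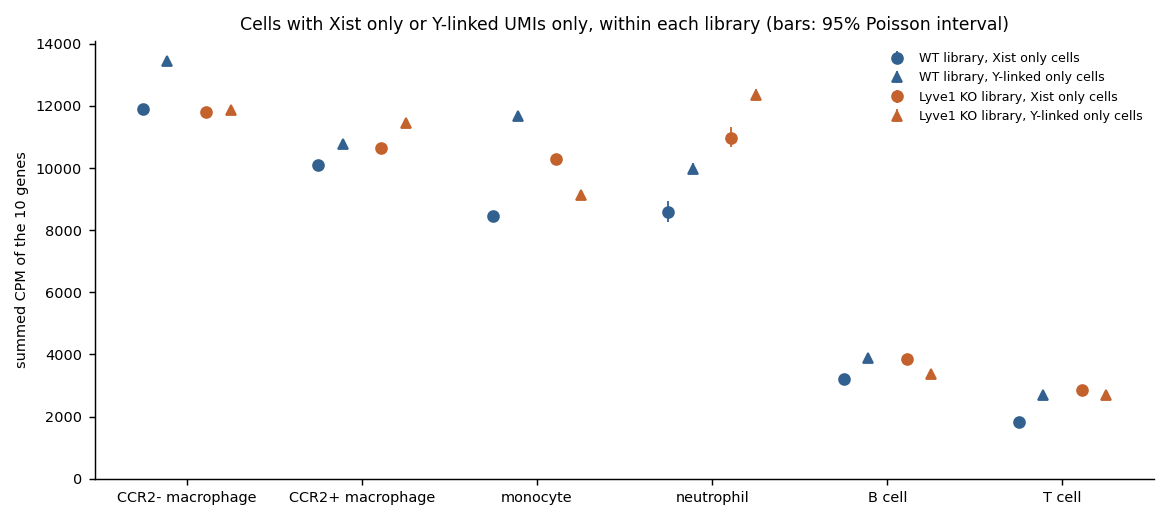
Summed CPM of the 10 genes (y axis) in the 6 large classes for cells with *Xist* only (circles) and with Y-linked UMIs only (triangles), by library (blue, WT; orange, Lyve1 KO), with 95% Poisson intervals. In monocytes the WT points, 8461 and 11675 CPM, lie on both sides of the Lyve1 KO points, and in neutrophils both Lyve1 KO points lie above both WT points.

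In the small classes the ratios rested on few cells, and many genes were past the fold. It was 8.47% of genes in NK cells (4.11% lower in Lyve1 KO), 8.36% in ILC2, 20.4% in mast cells or basophils (10.3% lower) and 3.85% in dendritic cells (2.53% lower). *Atf3* in NK cells, under the 100 UMIs needed for these shares, was at 3 UMIs in 40 WT cells and 87 UMIs in 51 Lyve1 KO cells (log2 2.75, 2.07 to 3.42), while *Junb* was at 3411 and 2219 CPM (log2 -0.62), *Zfp36* at 468 and 307 CPM (log2 -0.60) and *Egr1* at 150 and 70.5 CPM (log2 -0.99). In ILC2 *Ier3* was at 56.5 and 138 CPM (log2 1.16), *Jun* at 176 and 392 CPM (log2 1.11) and *Zfp36* at 395 and 618 CPM (log2 0.63), and the other 7 genes were within the fold. In mast cells or basophils all 10 genes were lower in Lyve1 KO in CPM, with *Egr1*, *Ier2*, *Jun* and *Fos* past the fold and *Atf3* at the 7 and 0 UMIs given above. The median cell lay the other way, with 1.79% of its UMIs from the 10 genes in WT and 1.93% in Lyve1 KO. The ranges from the 10th to the 90th percentile of cells were 0.0735-4.47% and 0.616-3.57%. In dendritic cells *Egr1* alone was past the fold, at 98.9 and 53.2 CPM (log2 -0.79).

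Other genes of the response were read from lists. Of 31 further immediate early genes, 29 were tested in CCR2- macrophages, where *Bhlhe40* was past the fold upward and none downward. In neutrophils *Klf2* and *Rhob*, of 22 tested, were past it upward and 5 downward (*Egr3*, *Klf4*, *Maff*, *Nfkbiz* and *Bhlhe40*), and in T cells 6 of 26 upward and *Klf4* downward. Of all genes tested, 1.21% were past it upward in CCR2- macrophages, 1.47% in neutrophils and 3.61% in T cells. Downward it was 0.555%, 3.72% and 6.96%, in the same order. Genes named for being past the fold were chosen after their values were seen. *Klf2*, a factor of T cell quiescence and exit from the thymus, was at 476 and 1239 CPM in T cells (log2 1.36) and at 1190 and 1819 CPM in neutrophils (log2 0.61). The nuclear receptor *Nr4a1* was at 674 and 689 CPM in CCR2- macrophages, 1421 and 1072 CPM in neutrophils and 291 and 317 CPM in T cells. *Btg2*, which slows proliferation, was at 529 and 469 CPM in CCR2- macrophages and 1644 and 1708 CPM in neutrophils.

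Of 16 further AP-1 and related bZIP genes, 15 were tested in CCR2- macrophages, 14 in CCR2+ macrophages and 11 in B cells. Of these, 0 were past the fold, where 1.76%, 2.3% and 2.13% of all genes tested were, in the same order. In neutrophils, with 11 tested, *Nfe2l2*, the oxidative stress factor, was past it, at 753 and 484 CPM (log2 -0.63). There 3.72% of all genes tested were past it downward. In monocytes 0 of 14 tested were past it upward and 1 downward, where 0.251% and 0.823% of all genes tested were. In T cells 1 of 12 tested was past it upward and 2 downward, where 3.61% and 6.96% were. *Jund*, a steady JUN relative, was at 1168 and 1138 CPM in CCR2- macrophages and 1620 and 1614 CPM in neutrophils, and *Maf*, a macrophage identity factor, at 987 and 862 CPM in CCR2- macrophages. Of 22 genes of the MAP kinase, serum response factor and CREB route, 14 (neutrophils) to 22 (CCR2- macrophages) were tested in a large class. Among those tested 0 were past the fold upward in any large class, where 0.251% (monocytes) to 3.61% (T cells) of all genes tested were. In CCR2- macrophages 0 were past it in either direction, where 1.76% of all genes tested were. Downward, 1 of 20 was past it in CCR2+ macrophages, 1 of 21 in monocytes and 2 of 14 in neutrophils. It was 1 of 21 in B cells and 2 of 21 in T cells. Of all genes tested in these classes, 1.43%, 0.823%, 3.72%, 0.886% and 6.96% were past it downward, in the same order. *Mapkapk2*, the kinase below p38 that acts on tristetraprolin, was at 166 and 208 CPM in CCR2- macrophages and 307 and 176 CPM in neutrophils (log2 -0.77). *Crem*, a CREB relative with repressor forms, was past the fold downward in CCR2+ macrophages, at 136 and 60.04 CPM (log2 -1.06), and *Rps6ka3*, an ERK-activated kinase, was at 110 and 120 CPM in CCR2- macrophages.

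Further feedback genes and cytokines with short-lived mRNA lay on the other side from *Fos* and *Jun* in neutrophils. Of 12 further feedback genes 9 were tested there, with 0 past the fold upward and 4 downward (*Dusp5*, *Zfp36l1*, *Nfkbia* and *Tnfaip3*), and of 9 cytokine genes 6 were tested, with 0 upward and 3 downward (*Cxcl2*, *Tnf* and *Ccl3*), where 3.72% of all genes tested were past it downward. *Nfkbia*, the inhibitor of NF-kB, was at 2281 and 1221 CPM in neutrophils (log2 -0.90), and *Zfp36l1*, a relative of *Zfp36*, at 559 and 358 CPM (log2 -0.63), while *Zfp36l2* was at 416 and 375 CPM. The neutrophil chemoattractant *Cxcl2* was at 4081 and 1686 CPM (log2 -1.27), and *Il1b* and *Ccl4* were within the fold at 4643 and 3729 CPM and 342 and 248 CPM. These are values of the whole class, in which the cluster led by *Il1rn* and *Acod1* made up 22.5% of WT but 14.0% of Lyve1 KO cells. The part of that make-up in these neutrophil ratios was not tested. In CCR2- macrophages *Cxcl2* was at 2511 and 2895 CPM and *Nfkbia* at 1157 and 1182 CPM.

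Heat shock genes, which also respond to warm handling, were read beside the 10 genes, from a list that also holds constitutive chaperones. The sum of the 14 genes was 8793 CPM in WT and 6995 CPM in Lyve1 KO CCR2- macrophages (log2 -0.33), 5721 and 5438 CPM in neutrophils (log2 -0.07) and 9342 and 8951 CPM in T cells (log2 -0.06), and it was lower in Lyve1 KO in all 6 large classes. In T cells 3 of 13 genes tested were past the fold upward and 0 downward, where 3.61% and 6.96% of all genes tested were. In CCR2- macrophages 0 of 14 were past it upward and 3 downward, where 1.21% and 0.555% were. In CCR2+ macrophages 1 of 13 was past it upward (0.873%), and in B cells 1 of 14 upward and 1 downward (1.24% and 0.886%). In monocytes and neutrophils 0 were (1.07% and 5.19% in either direction). The classes ranked differently by heat shock genes than by the 10 genes, since T cells had more heat shock transcripts than neutrophils in both libraries. The inducible chaperone *Hspa1a* was at 1319 and 791 CPM in CCR2- macrophages (log2 -0.73) but at 376 and 645 CPM in T cells (log2 0.76). *Hspa8* and *Hsp90ab1*, constitutive chaperones, were at 2061 and 2016 CPM and 1486 and 1224 CPM in CCR2- macrophages. The part of preparation, or of the make-up of clusters, in these differences was not tested.

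Markers of other cell types were summed in the classes where ratios were past the fold. The 11 neutrophil markers were at 8.44 CPM in WT and 20.9 CPM in Lyve1 KO T cells, with 2 of them at 0, and at 5.07 and 11.0 CPM in B cells, against 124705 and 153587 CPM in neutrophils. The 14 CCR2- macrophage markers summed to 26.8 and 10.1 CPM in T cells, 42.9 and 58.2 CPM in B cells and 29.6 and 11.2 CPM in neutrophils. The T cell markers were at 85.2 and 78.0 CPM in B cells and 44.8 and 55.8 CPM in neutrophils. In T cells, lists that hold genes also used by T cells were higher, but they did not all move with the T cell ratios. The monocyte list (568 and 755 CPM), the dendritic cell list (410 and 602 CPM) and the ILC2 list (362 and 656 CPM) did. The NK cell list lay the other way, at 390 CPM in WT and 257 CPM in Lyve1 KO T cells. The 6 erythroid markers were higher in WT, at 144 and 24.7 CPM in T cells, 49.9 and 6.04 CPM in B cells and 108 and 15.2 CPM in neutrophils. Their part in the ratios was not tested.

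The genes whose levels over the 20 combinations of class and library were most like the mean of the 10 genes, among 11796 genes compared, were *Lilrb4a* (Pearson r 0.957), *Nlrp3* (0.937), *Lilr4b* (0.930), *Crlf2* (0.921), *Tmbim6* (0.913), *Creg1* (0.911), *Lpcat2* (0.905), *Fes* (0.901), *Mctp1* (0.899) and *Map2k3* (0.893). *Lilrb4a* and *Lilr4b* are near-identical receptor genes between which the counting could split reads, and are uncertain for that reason. The libraries of a class are neighboring points in these correlations, so they mostly describe differences between classes.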

How the data were processed

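Leukocytes of 2 pools of 5 hearts were captured with a 10x 5′ kit, and the authors counted UMIs per gene and barcode with Cell Ranger (8.0.1 per the submitters' processing notes) on mm10. The deposited values were raw UMI counts of barcodes called as cells, 5713 in WT and 5285 in Lyve1 KO, with 67968938 and 61555917 UMIs in all.

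Kept barcodes had a minimum of 500 genes and of 250 UMIs and a mitochondrial share of 30% or less, which left out 601 WT and 874 Lyve1 KO barcodes for their mitochondrial share. The automatic doublet calls of scanpy 1.11.5 were too few, so the 98 WT and 73 Lyve1 KO barcodes with the highest doublet scores were left out, at 0.4% per 1000 barcodes. Cells were integrated and clustered in Seurat 5.3.0 (R 4.3.3) with 2000 variable genes, 30 dimensions, 20 neighbors and a resolution of 0.8, with 121 genes, among them the 10 genes and all listed genes, kept out. Clusters were named from markers, needing 3 markers that were each in at least 25% of cells, by a rule set after the data were seen.

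UMIs were summed per class and library and divided by all UMIs of the class (CPM). Ratios were taken on log2 of CPM with a pseudocount of 10, which understates the ratios of low genes. Intervals are at 95% (exact Poisson, exact binomial, Newcombe for differences of shares, and the delta method for ratios), and UMIs of 1 library are not replicates. Values were computed with Python 3.11.15, numpy 2.4.6, pandas 2.3.3 and scipy 1.17.1 and drawn with matplotlib 3.10.9, and the calculations were tested on simulated data. The text names the 10 genes, *Lyve1*, the 3 genes of each further list with the highest CPM, any gene past the fold in 1 direction in all 6 large classes (none was) and the 10 genes most like the mean of the 10. Further genes of the lists were named where they were past the fold, after their values were seen, and clusters by their leading genes. The genes and lists were chosen with earlier results of these data known.

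Alternatives changed the pseudocount, the scaling, the limits on cells, the weight of cells, the clustering, the fold, the sex-linked part of the cells, the filter on low counts and the thinned depth. An equal make-up of clusters and the omission of the clusters led by *Arpp21*, *Camp* or *Saa3* were chosen after seeing the data.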

Additional observations from a re-analysis of the deposited data

Results flagged for a closer look

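Barcodes that the limits on cells left out still held transcripts of the 10 genes. In the Lyve1 KO library the 874 barcodes over the mitochondrial limit had 741 CPM of the 10 genes, against 421 CPM in 601 WT barcodes, and the 947 barcodes under the gene or UMI limit had 5633 CPM, against 4050 CPM in 827 WT barcodes. Both were flagged because the Lyve1 KO level lay above the WT level in data that no comparison used, whereas the kept cells had 8464 CPM in Lyve1 KO and 9897 CPM in WT. Without mitochondrial UMIs the barcodes over that limit held 5053 CPM in Lyve1 KO and 2323 CPM in WT.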

How the results depend on the processing

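No paired analysis was possible because there was 1 library per genotype and no test. The summed log2 ratio of neutrophils stayed between 0.31 and 0.43 under every alternative tried. In cells with *Xist* only the summed ratio was 0.28 in monocytes, 0.26 in B cells and 0.64 in T cells, and in Y-linked cells it was -0.0078 in T cells. With the mean of per-cell log values it was 0.15 in B cells. The 6 pairs past the fold upward became 1 with per-cell log values, 13 in *Xist* cells, 2 in Y-linked cells, 3 with the same make-up of clusters (added after the data were seen) and 1 with a fold of 2. The 0 pairs past it downward became 1 with a pseudocount of 1 CPM, 2 when clustering used all variable genes, 1 at a resolution of 1.2, 2 in *Xist* cells and 7 in Y-linked cells. In *Xist* cells *Jun* (0.68) and *Egr1* (0.64) of monocytes and *Egr1* of B cells (0.59) reversed. When clustering used all variable genes, clusters led by *S100a8* and *Ly6c2* (240 and 239 cells) and by *Arpp21* (77 and 39 cells) stayed unnamed. A cluster with *Cd8b1* among its leading genes (89 and 145 cells) was then named NK cells. At a resolution of 1.2 a cluster led by *Olfml3* (224 and 69 cells) stayed unnamed. The classes therefore held other cells under these alternatives. The cause of these shifts was not tested. *Jun* in neutrophils was past the fold under 11 of 12 alternatives, *Zfp36* in T cells under 10 of 12 and *Ier3* in T cells under 5 of 12 (0.06 to 0.57 where it was lost). Leaving out a replicate was not possible.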

Other observations

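Cells that stayed unnamed also held the 10 genes. The clusters led by *AY036118*, of low depth, had 10610 CPM in WT (267 cells) and 5065 CPM in Lyve1 KO (117 cells) in 1 and 9984 CPM (243 cells) and 5600 CPM (38 cells) in the other. The cluster led by *Hbb-bs* and *Hbb-bt*, hemoglobin genes, had 9498 CPM (324 cells) and 7618 CPM (399 cells). The cluster led by *Trdv4* and *Cd163l1*, genes of gamma delta T cells, had 9277 CPM (52 cells) and 7119 CPM (51 cells), above the 2225 and 2884 CPM of the named T cells in the same libraries.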
